A study of Mus musculus with 8 samples.

Results

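The transcripts described here encode the AP-1 transcription factors of the Fos and Jun families and the small Maf factors, measured by RNA-seq in mouse tibialis anterior (TA) muscles with or without knockdown of *Uba1*. Rows of the deposited table were taken by gene symbol, and all 10 members were found among its 41709 genes. They are *Fos*, *Fosb*, *Fosl1* and *Fosl2* (the Fos family), *Jun*, *Junb* and *Jund* (the Jun family), and *Maff*, *Mafk* and *Mafg* (the small Mafs). Of these, 3 (*Fosl2*, *Maff* and *Mafk*) were chosen by their measured TPM, because they had been seen to fall with *Uba1* siRNAs in these same muscles, and the other 7 were added as their relatives. The fall of those 3 is therefore given as a description without a test.

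All muscles came from male C57BL/6J mice that were 3 months old, and were collected 7 days after siRNAs had been electroporated into the muscle. The siNT group is 4 right TA muscles that received non-targeting (NT) control siRNAs, and the siUBA1 group is the 4 left TA muscles of the same 4 mice (numbers 1, 6, 7 and 9 in the sample names), which received siRNAs against *Uba1*. The side of the body and the siRNA therefore cannot be told apart. All 8 muscles went through injection and electroporation, none of those analysed was left untouched, and electroporation reaches a part of the fibers of a muscle that also holds vessels, connective tissue and leukocytes. The titles and descriptions name UBA1 for all 4 siUBA1 muscles, whereas the treatment tags of replicates 2 to 4 name UBA2, UBA3 and UBA4, and the groups follow the titles and descriptions.

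UBA1 is the enzyme that activates ubiquitin for most ubiquitination in the cell. Fos and Jun proteins pair through leucine zippers to form AP-1, which binds DNA at TGACTCA (the TRE) or, less tightly, at TGACGTCA (the CRE). Fos proteins need a partner, whereas Jun proteins can also pair with each other. The genes for several of these proteins are immediate-early genes, whose transcripts rise within minutes of a stimulus and are short-lived, and the proteins themselves are turned over through ubiquitin. The small Mafs have a DNA-binding zipper but no activation domain, so that they repress as pairs with each other and activate as partners of larger factors such as Nrf2, at antioxidant response elements.

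*Uba1* was measured at 59.0 to 63.6 TPM (an abundance scaled for transcript length) in the siNT muscles. In the siUBA1 muscles it was at 18.1, 6.77, 15.8 and 23.1 TPM in mice 1, 6, 7 and 9, lower in 4 of 4 mice (log2 difference -1.98, SE 0.290; limma adjusted p = 0.0527 without and 0.0278 with the mouse as a block). The mean was 26.3% of the siNT mean, and the muscle of mouse 9 kept the most *Uba1* while that of mouse 6 kept the least. The TPM of each muscle sum to 1000000, and the number of reads behind them, estimated with exonic lengths of GENCODE M39, was 46900000 to 48800000 per muscle. Mitochondrial transcripts took 42.1 to 45.7% of the TPM in siNT muscles and 39.9 to 50.3% in siUBA1 muscles. The 12 markers of muscle fibers together stood at 154084 to 168963 TPM with NT and 118959 to 170017 TPM with *Uba1* siRNAs, and none of the markers of the 7 cell types examined was at 0 in all muscles. In such bulk tissue, fewer cells of a type and less RNA per cell cannot be told apart.

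With NT siRNAs, *Fos* was the most abundant of the 10 transcripts, at a mean of 309 TPM and a range of 216 to 484 TPM over 4 muscles. It was followed by *Jun* (146 TPM), *Junb* (131 TPM), *Fosb* (103 TPM) and *Jund* (87.1 TPM), whose ranges over the muscles each overlapped that of the next. Within muscles the order was more even, since *Jun* was above *Junb* and *Junb* above *Fosb* in 4 of 4 siNT muscles and *Fosb* above *Jund* in 3 of 4. Below a gap came *Mafk* (29.1 TPM) and *Mafg* (26.4 TPM), which also overlapped and of which *Mafk* was the higher in 2 of 4 muscles, then *Fosl2* (17.2 TPM), *Maff* (10.1 TPM) and *Fosl1* (2.13 TPM), each clear of its neighbor in all 4 muscles. TPM are normalized for transcript length, so these levels can be set side by side. The order was the same in the siUBA1 muscles apart from the pair of small Mafs: *Mafg*, at a mean of 29.0 TPM and 25.7 to 33.6 TPM over the muscles, stood above *Mafk*, at 16.9 TPM and 13.7 to 21.6 TPM.

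The DNA just upstream of these genes was read from the GRCm39 genome, as the 300 bases before the start of the canonical GENCODE M39 transcript, and searched on both strands for binding motifs known for immediate-early genes. The windows of the 3 transcripts chosen for their fall (*Maff*, *Mafk* and *Fosl2*) are shown. Those of *Jund* and *Fosb*, the other members whose windows hold a CRE or a whole CArG box, are shown with them. Capitals mark a match to TGACTCA, TGACGTCA, TGACNNNGC (the core of the antioxidant response element), the kB motif or the CArG box, which binds SRF. All are written 5′ to 3′ on the strand of the gene.
Maff (plus strand, chr15:79231420-79231719): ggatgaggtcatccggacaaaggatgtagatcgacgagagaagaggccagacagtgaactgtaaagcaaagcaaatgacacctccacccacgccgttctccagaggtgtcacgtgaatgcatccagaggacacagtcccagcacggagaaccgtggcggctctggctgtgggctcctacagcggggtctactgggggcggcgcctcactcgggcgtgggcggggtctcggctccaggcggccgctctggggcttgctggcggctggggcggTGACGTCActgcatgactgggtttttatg
Mafk (plus strand, chr5:139776964-139777263): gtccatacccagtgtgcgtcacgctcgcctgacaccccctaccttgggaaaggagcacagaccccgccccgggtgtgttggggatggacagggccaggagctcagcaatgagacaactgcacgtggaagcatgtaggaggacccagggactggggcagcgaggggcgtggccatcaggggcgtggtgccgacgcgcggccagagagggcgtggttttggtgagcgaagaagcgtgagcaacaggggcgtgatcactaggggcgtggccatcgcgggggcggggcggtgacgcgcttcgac
Fosl2 (plus strand, chr5:32292407-32292706): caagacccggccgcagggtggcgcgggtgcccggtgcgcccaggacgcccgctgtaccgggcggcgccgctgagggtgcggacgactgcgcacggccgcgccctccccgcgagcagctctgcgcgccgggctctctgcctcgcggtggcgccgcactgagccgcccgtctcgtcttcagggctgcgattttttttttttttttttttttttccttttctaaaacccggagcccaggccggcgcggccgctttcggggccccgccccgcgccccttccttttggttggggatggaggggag
Jund (plus strand, chr8:71151299-71151598): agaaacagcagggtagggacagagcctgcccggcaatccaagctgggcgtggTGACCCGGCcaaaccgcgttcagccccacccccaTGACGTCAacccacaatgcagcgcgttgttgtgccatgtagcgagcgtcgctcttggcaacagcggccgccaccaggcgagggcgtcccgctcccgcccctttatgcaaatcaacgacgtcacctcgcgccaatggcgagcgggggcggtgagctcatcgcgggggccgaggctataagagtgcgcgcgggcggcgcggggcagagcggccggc
Fosb (minus strand, chr7:19043977-19044276): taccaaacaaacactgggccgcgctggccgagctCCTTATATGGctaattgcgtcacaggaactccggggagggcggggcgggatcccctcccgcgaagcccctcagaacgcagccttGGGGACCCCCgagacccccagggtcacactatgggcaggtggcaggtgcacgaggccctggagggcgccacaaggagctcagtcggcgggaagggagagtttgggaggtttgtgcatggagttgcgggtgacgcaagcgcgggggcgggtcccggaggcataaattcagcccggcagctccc
The *Maff* window holds TGACGTCA at positions -29 to -22, counted back from the start, and the *Jund* window at -214 to -207. These 2 of 10 members compare with 1.75% of the 21747 promoters of the same length. No member window holds TGACTCA, which is found in 4.74% of all promoters. A whole CArG box appears in the *Fosb* window alone, at -266 to -257 (1.70% of all promoters), and a kB motif in *Fos* and *Fosb* (8.83%). The *Fos* window opens with tattagg, which could be the end of a CArG box cut by the edge of the window. The bases before it were not searched. TGACNNNGC is found in *Jund* and *Mafg* (11.2%). TATAAA, which can lie inside a CArG box, is found in *Fos*, *Fosl1* and *Junb* (14.2%), and CCAAT in *Jun*, *Junb* and *Jund* (40.5%); neither is in capitals above. The windows of *Mafk* and *Fosl2* hold none of these strings. A match is a string of letters in this window only, and binding was not measured.

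*Maff*, the small Maf with the lowest level in muscle, showed the largest fitted difference of the 9 members that could be tested, and lies on chromosome 15 (79230821 to 79243276, plus strand). It was measured at 8.85, 13.4, 7.47 and 10.5 TPM with NT siRNAs and at 2.38, 3.99, 2.69 and 6.65 TPM with *Uba1* siRNAs (mice 1, 6, 7 and 9). Every siUBA1 muscle was below every siNT muscle, and the means were 10.1 ± 2.56 and 3.93 ± 1.94 TPM (SD, n = 4), or 39.0% of the control. The log2 difference, here and throughout on the scale of log2(TPM + 1) and written as siUBA1 minus siNT, was -1.22 (SE 0.258). These values rest on 290 to 539 reads per muscle with NT and 91 to 262 reads with *Uba1* siRNAs.

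*Fosl2* encodes Fra-2, a Fos protein without the strong activation domain of Fos, and lies on chromosome 5 (32292707 to 32315186, plus strand). It was at 17.7, 19.6, 15.9 and 15.5 TPM in siNT muscles and at 7.39, 8.20, 5.89 and 12.2 TPM in siUBA1 muscles. The siNT muscles were close together (coefficient of variation 10.8%), the siUBA1 muscles were wider apart (32.0%), and the groups did not overlap. The mean went from 17.2 ± 1.85 to 8.42 ± 2.70 TPM, with a log2 difference of -0.98 (SE 0.177). *Mafk*, the small Maf that lies on chromosome 5 (139776804 to 139788408, plus strand), was at 22.1, 35.7, 22.2 and 36.6 TPM with NT and 13.7, 17.5, 15.0 and 21.6 TPM with *Uba1* siRNAs. The groups were separated by a narrow margin, between 21.6 and 22.1 TPM, and the siNT muscles formed a lower pair (mice 1 and 7) and a higher pair (mice 6 and 9). The mean went from 29.1 ± 8.07 to 16.9 ± 3.45 TPM, with a log2 difference of -0.73 (SE 0.199). Within mice the *Mafk* difference was the most even of the 3, at -0.65, -0.99, -0.54 and -0.74 in mice 1, 6, 7 and 9. With the mouse as a block its SE became 0.0851, and that of *Maff* 0.156. These SEs describe the spread of values that chose the 3 members, and no test can be read from them.

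**Figure D1:**
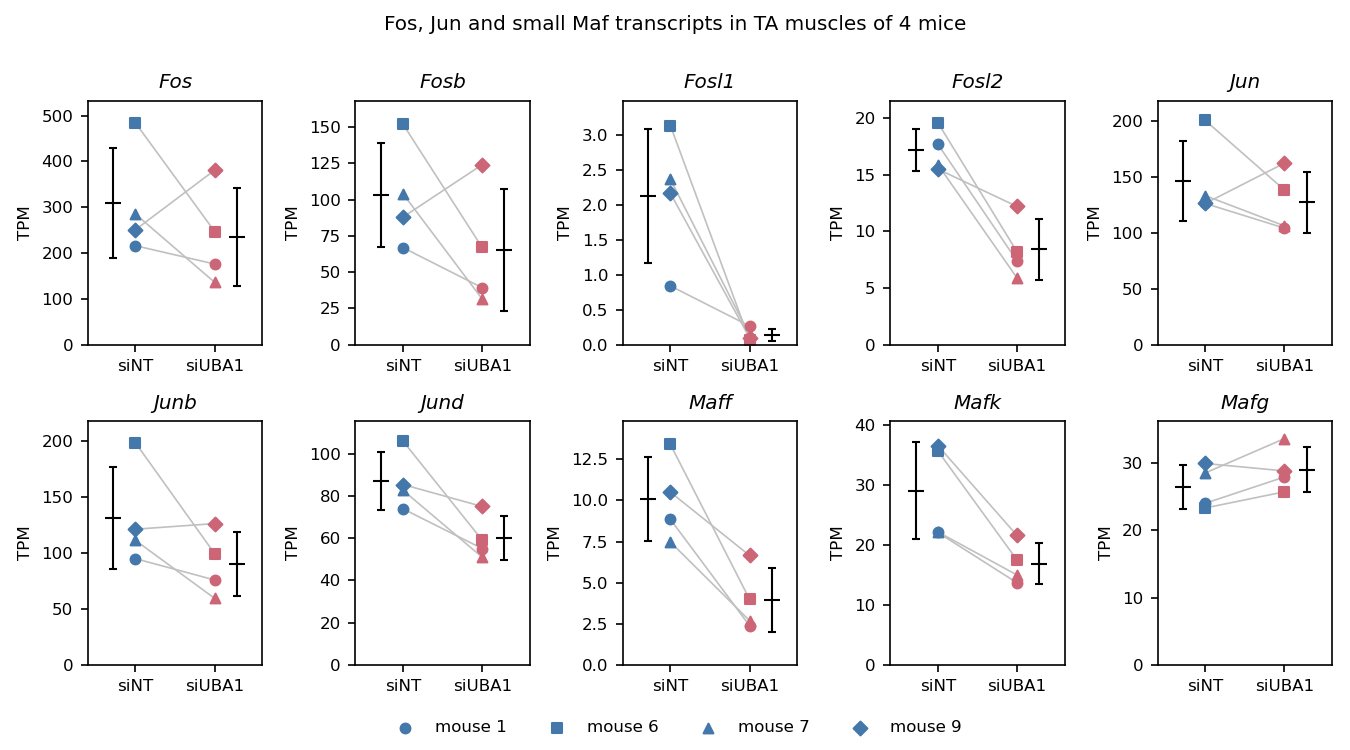
TPM of each member (y axis, from 0) in siNT muscles (blue) and siUBA1 muscles (red), with lines joining both muscles of a mouse, marker shapes for the mouse, and bars at the side for the mean ± SD of 4 muscles. *Fosl2*, *Maff* and *Mafk*, which were chosen for their fall, and *Fosl1* do not overlap between the groups. All siUBA1 muscles were below all siNT muscles in 1.01% of genes tested and 0.831% of genes above 0. *Mafg* overlaps and is slightly higher on average, and the *Fos*, *Fosb*, *Jun* and *Junb* lines of mouse 9 rise.

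*Fosl1* encodes Fra-1, an inducible Fos protein, and had the lowest level and the largest relative difference of the 10 members. It was at 0.842, 3.14, 2.37 and 2.17 TPM with NT siRNAs and at 0.267, 0.0629, 0.136 and 0.0971 TPM with *Uba1* siRNAs. Every siUBA1 muscle was below every siNT muscle, and the means of 2.13 ± 0.957 and 0.141 ± 0.0891 TPM (SD, n = 4) differed 15.1-fold (exact permutation test on log2(TPM + 1), two-sided, p = 0.0286, the smallest that 4 against 4 allows). That test leaves out the pairing of legs, and with labels exchanged within mice only the exact p was 0.125, the smallest that 4 mice allow. The reads behind them were 27, 99, 72 and 64 with NT siRNAs and 8, 2, 4 and 3 with *Uba1* siRNAs. Pooled, 262 and 17 reads gave a depth-adjusted ratio of 15.2 with an exact 95% interval of 9.34 to 26.6, which covers counting error only. Mouse 1 had both the lowest siNT value and the highest siUBA1 value, and its difference was the smallest of the 4 mice.

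*Fosl1* was at 1 TPM or more in only 3 of 8 muscles and so was not among the 11530 genes tested, which had to reach 1 TPM in at least 4 muscles. Without that requirement its log2 difference was -1.40 (SE 0.223), with a limma adjusted p of 0.131 over the 21532 genes above 0. Among the 51 genes below the requirement whose siNT mean was at least 1 TPM, 9.80% had all siUBA1 muscles below all siNT muscles. The gene spans 5497575 to 5505974 on chromosome 19 (plus strand), and 1163 of its exonic bases lie antisense to exons of *Ccdc85b*, a coding gene on the other strand. The library kit keeps no strand, so reads there cannot be assigned to one of the pair. *Ccdc85b* itself was higher in siUBA1 muscles of 4 of 4 mice (log2 difference 0.25, SE 0.0752; limma adjusted p = 0.177), the opposite direction from *Fosl1*.

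*Fos*, the prototype of the family, was lower on average and did not pass the test. It was at 216, 484, 285 and 251 TPM with NT and 176, 247, 136 and 381 TPM with *Uba1* siRNAs (log2 difference -0.43, SE 0.332; limma adjusted p = 0.481). It was lower in mice 1, 6 and 7 and higher in mouse 9, where the within-mouse log2 difference was 0.60. With 1 muscle left out, the fitted difference was -0.70 without the siUBA1 muscle of mouse 9, -0.21 without that of mouse 7 and -0.19 without the siNT muscle of mouse 6. *Fosb*, which like *Fos* carries an activation domain, showed the same order of muscles, at 66.9, 152, 104 and 87.9 TPM with NT and 39.3, 67.0, 31.5 and 124 TPM with *Uba1* siRNAs. Its log2 difference of -0.78 was larger, but its SE of 0.404 was the largest of the 9 tested members (limma adjusted p = 0.329), and the difference was -0.50 without the siUBA1 muscle of mouse 7 and -1.15 without that of mouse 9. Each muscle gave 4630 to 17630 reads for *Fos* and 2844 to 14656 for *Fosb*, so counting error is a small part of that spread. *Fos* lies on chromosome 12 (85520658 to 85524047, plus strand) and *Fosb* on chromosome 7 (19036621 to 19043976, minus strand).

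The 3 *Jun* transcripts were each lower on average with *Uba1* siRNAs, and none passed the test. *Jund*, whose protein is present in resting cells and which is the least inducible of the 3, moved most evenly. It was at 73.9, 106, 82.7 and 85.4 TPM with NT and 55.1, 59.1, 51.0 and 75.0 TPM with *Uba1* siRNAs, lower in 4 of 4 mice, with ranges that overlapped by the siUBA1 muscle of mouse 9 alone. Its log2 difference was -0.53 (SE 0.138), with a limma adjusted p of 0.156, or 0.0795 with the mouse as a block. *Junb*, often an antagonist of Jun, was at 94.7, 198, 111 and 121 TPM against 75.7, 99.1, 59.3 and 126 TPM. Its log2 difference of -0.54 (SE 0.266; limma adjusted p = 0.317) was as large as that of *Jund*, with more spread, and was -0.32 without the siNT muscle of mouse 6. *Jun* itself, at 126, 200.1, 133 and 126 TPM against 104, 138, 106 and 162 TPM, had the smallest difference in the family (log2 -0.19, SE 0.185; limma adjusted p = 0.570), which was -0.03 without the siNT muscle of mouse 6, -0.11 without the siUBA1 muscle of mouse 1 or 7, and -0.32 without that of mouse 9 or with median-ratio scaling. *Jun* and *Junb*, like *Fos* and *Fosb*, were higher with *Uba1* siRNAs in mouse 9. The genes lie on chromosome 4 (*Jun*, 94937271 to 94940459, minus strand) and chromosome 8 (*Junb*, 85701113 to 85705359, minus strand; *Jund*, 71151599 to 71153265, plus strand). Each overlaps an antisense transcript, which for *Junb* is the abundant *Prdx2* over 173 bases.

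*Mafg*, the third small Maf, was the only tested member whose fitted difference was not below 0. It was at 24.0, 23.3, 28.5 and 29.9 TPM with NT and 27.9, 25.7, 33.6 and 28.8 TPM with *Uba1* siRNAs. The groups overlapped, the value was higher in 3 of 4 mice, and the log2 difference was 0.13 (SE 0.107; limma adjusted p = 0.513). With median-ratio scaling the difference was 0.00, and with 1 muscle left out it was 0.06 to 0.19. *Mafg* lies on chromosome 11 (120515942 to 120524530, minus strand) and shares 125 exonic bases with *Sirt7* on the same strand.

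Of the 6 tested members not chosen for their fall, 5 had a log2 difference below 0, beside 18.2% of all 11530 genes tested, and their median was -0.48, against 0.11 for all genes. With median-ratio scaling, which moved the median of all genes to -0.01 and the share of genes below 0 to 52.0%, their median was -0.61. None of the 6 passed an adjusted p of 0.05 in limma without a block, beside 0.0260% of all genes that did as lower. None met the study's criterion (a log2 difference beyond 0.58 and an unadjusted P under 0.05) with the P taken from limma. Of all genes, 0.833% met it as lower. The study itself used Kruskal-Wallis. By that test 82 of all genes tested met the criterion as lower and 36 as higher, against 96 and 51 by limma. The unadjusted limma P was under 0.05 in 1 of the 6 members (*Jund*), against 1.98% of all genes with a lower value. The calls by unadjusted P depended on the setting. With the mouse as a block it was under 0.05 in 3 of the 6 (*Fosb*, *Junb* and *Jund*; 2.80% of all genes as lower), and *Fosb* met the criterion (0.954% of all genes). With median-ratio scaling (1.20% of all genes as lower) or quantile normalization (1.15%) *Jund* met it, and with the block and median-ratio scaling *Fosb*, *Junb* and *Jund* did (1.38%). Without the siNT muscle of mouse 1, *Junb* and *Jund* met it (1.02%), and without the siUBA1 muscle of mouse 9, *Fos*, *Fosb*, *Junb* and *Jund* did (1.02%). The 3 members chosen for their fall had differences beyond 0.58 by that choice, and with them the median of the 9 was -0.54. All siUBA1 muscles were below all siNT muscles in 1.01% of genes tested and 0.831% of genes above 0, and among the members this held for the 3 chosen for it and, outside the genes tested, for *Fosl1*. Besides those 3, *Jund* was the one tested member that was lower in 4 of 4 mice, which 2.98% of genes tested were. With the mouse as a block, 0.304% of genes were lower at an adjusted p under 0.05, and of the 6 members not chosen for their fall 0 were.

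**Figure D2:**
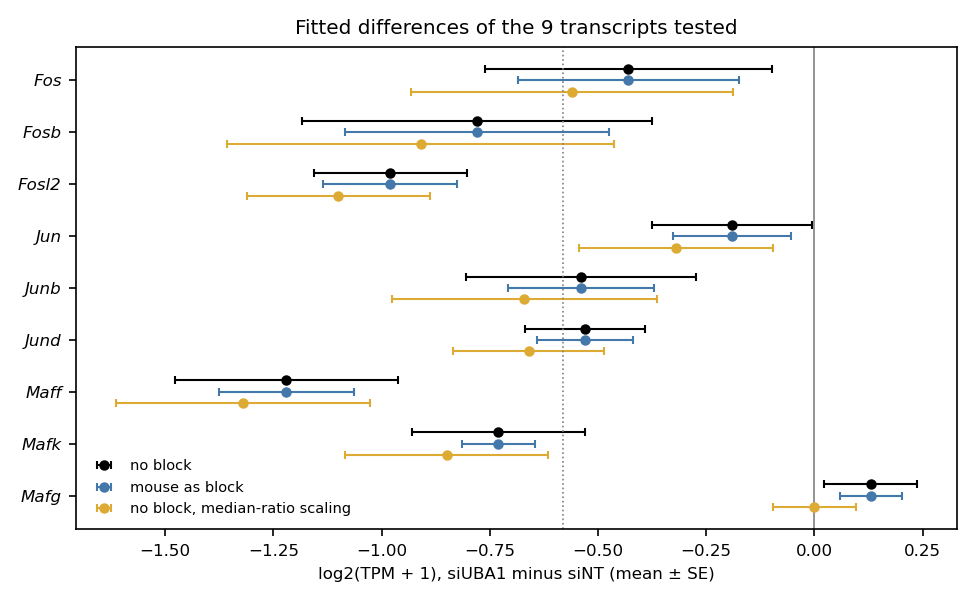
Fitted log2(TPM + 1) differences, siUBA1 minus siNT (x axis), of the 9 tested members (y axis), as points with SE, without a block, with the mouse as a block and with median-ratio scaling; the dotted line is the study's threshold of 0.58 below 0. *Maff*, *Fosl2* and *Mafk*, which were chosen for their fall, lie beyond that line with all 3 settings, as does *Fosb* with a wider SE. *Jun* is nearest to 0 in the Fos and Jun families, and *Mafg* is at 0.13 or 0.00.

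The summed level of each family was lower on average in siUBA1 muscles, and the ranges overlapped in all 3 families. The 4 transcripts of the Fos family together stood at 302, 658, 407 and 356 TPM with NT and 223, 322, 174 and 517 TPM with *Uba1* siRNAs. *Fos* and *Fosb* made up most of this sum, so it followed them and was lower in 3 of 4 mice (431 ± 158 against 309 ± 152 TPM). The Jun sum was 364 ± 94.3 against 277 ± 66.0 TPM, lower in 3 of 4 mice. The small Maf sum was 65.6 ± 10.7 against 49.9 ± 5.62 TPM, lower in 4 of 4 mice. Its lower value comes from *Maff* and *Mafk*, which were chosen for their fall, while *Mafg* was higher on average (26.4 against 29.0 TPM). The log2 difference of the Fos sum was -0.54, and -0.31 without the siNT muscle of mouse 6, -0.30 without the siUBA1 muscle of mouse 7 and -0.83 without that of mouse 9. That of the Jun sum was -0.39, and -0.22 without the siNT muscle of mouse 6.

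The makeup of the families also differed, most visibly among the small Mafs. *Mafg* was 43.8, 32.1, 49.0 and 38.9% of small Maf TPM with NT and 63.4, 54.4, 65.5 and 50.5% with *Uba1* siRNAs, a change from 40.9% ± 7.18 to 58.4% ± 7.15 without overlap. *Maff* went from 15.3% ± 2.59 to 7.70% ± 3.03 and *Mafk* from 43.8% ± 5.45 to 33.9% ± 4.26, both lower in 4 of 4 mice. These shares add up to a fixed total, so a fall of one member raises the others, and they follow from the transcripts chosen for their fall. In the Jun family, which holds none of those, *Jun* went from 40.3% ± 2.05 (37.9 to 42.9%) to 46.1% ± 2.13 (44.4 to 49.0%), also without overlap. The TPM of *Jun* was itself lower on average (log2 -0.19). Its higher share restates the larger average differences of *Junb* (-0.54) and *Jund* (-0.53). How often such shares separate among other genes was not counted. In the Fos family, which holds the chosen *Fosl2*, *Fos* took 71.4% ± 1.59 with NT and 76.9% ± 2.40 with *Uba1* siRNAs (70.0 to 73.5% and 73.6 to 78.9%). *Fosb* took 23.8% ± 1.51 and 20.1% ± 2.93 (lower in 4 of 4 mice, with overlap) and *Fosl2* took 4.28% ± 1.20 and 2.90% ± 0.526. *Fosl1* took 0.487% ± 0.150 and 0.0591% ± 0.0490, lower in 4 of 4 mice and without overlap.

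**Figure D3:**
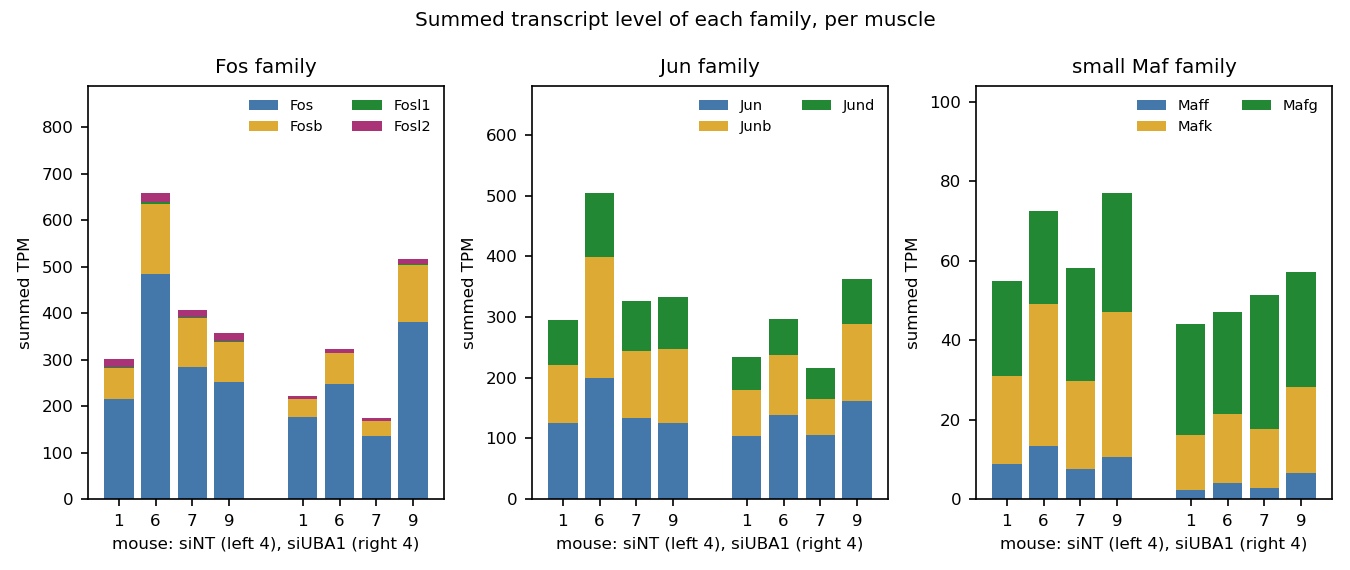
Summed TPM per muscle (bars from 0, one bar for each of 4 siNT and 4 siUBA1 muscles, labeled by mouse) for the Fos, Jun and small Maf families, split by member. The muscle of mouse 6 is the highest siNT bar for Fos and Jun and that of mouse 9 is the highest siUBA1 bar in all 3, and *Mafg* fills most of each siUBA1 bar of the small Mafs.

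Most members shared their highest muscle in each group. Among siNT muscles, that of mouse 6 was the highest for 8 of 10 members (all but *Mafk* and *Mafg*), with 484 TPM of *Fos* and 198 TPM of *Junb*. Among siUBA1 muscles, that of mouse 9 was the highest for 8 of 10 members (all but *Fosl1* and *Mafg*), and the within-mouse differences of *Fos*, *Fosb*, *Jun* and *Junb* were above 0 in that mouse only. *Uba1* was at 23.1 TPM in that muscle, the highest of the siUBA1 group, with a within-mouse log2 difference of -1.32 against -1.69, -2.95 and -1.95 in mice 1, 6 and 7. Its part in the result was not tested, since each mouse is one pair. Without the siUBA1 muscle of mouse 9, the median difference of the 9 members, the 3 chosen for their fall included, was -0.71, and without that of mouse 7 it was -0.46. Without the former, 39 of all genes passed an adjusted p of 0.05 in place of 3, and without the latter 2 did. None of the 6 members not chosen for their fall passed it when any 1 muscle was left out.

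Markers of other cell types were compared because vessels, connective tissue and leukocytes also express AP-1 genes. The 10 macrophage markers summed to 158 to 501 TPM with NT and 145 to 515 TPM with *Uba1* siRNAs, and the 8 endothelial markers to 129 to 194 and 143 to 183 TPM. The 5 smooth muscle markers were at 225 to 350.3 and 240.4 to 263 TPM, the 6 satellite cell markers at 37.3 to 58.1 and 35.1 to 70.7 TPM, and the 7 neutrophil markers at 16.8 to 54.5 and 28.7 to 65.8 TPM. These ranges overlapped. The 8 fibroblast markers were at 519 to 1082 and 703 to 1352 TPM, also overlapping, and were higher with *Uba1* siRNAs in 4 of 4 mice. The macrophage, neutrophil and endothelial sums were each higher with *Uba1* siRNAs in 3 of 4 mice. Those of satellite cell and smooth muscle markers were higher in 2 of 4. In mouse 9 the siUBA1 muscle, which had the highest values of most members, had 178 TPM of macrophage and 35.8 TPM of neutrophil markers, neither the highest of its group. The part of these cells in the members' differences was not tested.

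The genes whose levels most resembled those of the 3 falling members across the 8 muscles included several stimulus-induced genes. For *Fosl2* the highest Pearson correlations of log2(TPM + 1) were with *Nfkbia* (r = 0.989), which encodes the inhibitor of NF-kB, *Nr4a2* (0.986), *Sik1* (0.979), *Plk3* (0.974) and *Nr4a1* (0.971). For *Maff* they included *Rassf1* (0.984), the stress-induced factor *Atf3* (0.977), the histone demethylase gene *Kdm6b* (0.976) and the syndecan gene *Sdc4* (0.969). For *Mafk* they included *Socs3* (0.974), a feedback inhibitor of cytokine signaling, *Rassf1* (0.964), *Gm12940* (0.960) and *Adamts1* (0.957). Among the members, *Jund* was closer to the 3 (r = 0.938, 0.960 and 0.921 with *Fosl2*, *Maff* and *Mafk*) than *Fos* (0.720, 0.757 and 0.699) or *Jun* (0.644, 0.723 and 0.662). *Fosl2* and *Maff* correlated at 0.960, *Mafk* and *Maff* at 0.943 and *Fosl2* and *Mafk* at 0.840, and *Mafg* was negatively correlated with all 3. These are descriptions over 8 points that share the split between the 2 groups, so any gene that is lower in the siUBA1 muscles can score high.

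Genes around AP-1 were then counted in 6 lists, with limma without a block. Of 18 other bZIP factors that can pair with Fos, Jun or small Maf proteins, or with one of their relatives, 11 were tested and 1 met the study's criterion, as lower, which 0.833% of all genes met as lower and 0.442% as higher. Without the siNT muscle of mouse 1 or 6 or the siUBA1 muscle of mouse 7, 1 also met it as higher. The lower one was *Atf3*, which went from 116 ± 35.1 to 25.4 ± 14.1 TPM (log2 difference -2.23, SE 0.337; limma adjusted p = 0.0575, or 0.00663 with the mouse as a block) and was lower in 4 of 4 mice. The median of the list was 0.07, near the 0.11 of all genes. Of 25 kinases and transcription factors upstream of AP-1 genes, 24 were tested and 0 met the criterion, with log2 differences from -0.18 (*Srf*) to 0.36 (*Rps6ka5*). Of 8 ubiquitin ligase components that act on Jun or other members, 8 were tested and 0 met it, with differences from -0.08 (*Fbxw7*) to 0.34 (*Ubr1*). None of these 3 lists held a gene past the adjusted p without a block. At an unadjusted P under 0.05, which 1.98% of all genes met as lower and 16.0% as higher, the bZIP list had 2 lower and 2 higher genes, the upstream list 1 and 5, and the ligases 0 and 2.

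Genes known as AP-1 targets did not move one way. Of 23, 20 were tested, 4 met the criterion as lower and 2 as higher, beside 0.833% and 0.442% of all genes, and the median was -0.02. *Ccl2*, a monocyte chemokine, fell from 35.4 ± 5.50 to 3.76 ± 1.76 TPM (log2 -3.00; limma adjusted p = 0.00429) and was the one gene of the list to pass the adjusted threshold. *Il6* was at 4.23 ± 1.63 and 0.760 ± 0.521 TPM (log2 -1.56, adjusted p = 0.0909 by limma). *Plaur*, named after its value was seen, was also lower by the criterion (log2 -0.71). In the opposite direction the collagenase gene *Mmp13* was at 4.97 ± 2.99 and 36.7 ± 26.1 TPM (log2 2.47, adjusted p = 0.147 by limma) and *Spp1* at 6.12 ± 1.68 and 12.3 ± 7.60 TPM (log2 0.79), and with median-ratio scaling or quantile normalization 1 of these 2 met the criterion. The count of higher genes was also 1 without the siNT muscle of mouse 1, 6 or 9 or the siUBA1 muscle of mouse 6, and that of lower genes was 2 at a mean of at least 5 TPM. Of 15 targets of small Maf pairs with Nrf2, 14 were tested and 0 met the criterion or passed the adjusted p, with 0 lower and 2 higher at an unadjusted P under 0.05. Their differences ran from -0.38 (*Srxn1*) to 0.25 (*Gstm1*) with a median of 0.05.

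The last of the 6 lists held other immediate-early genes. Of 25, 24 were tested and 20 were below 0, beside 18.2% of all genes, with a median of -0.51. The criterion was met by 11 as lower and 1 as higher, beside 0.833% and 0.442% of all genes. *Nr4a3*, a nuclear receptor, was at 15.3 ± 3.23 TPM with NT and 5.74 ± 4.22 TPM with *Uba1* siRNAs (log2 -1.49). *Nr4a2* was at 8.31 ± 1.97 and 3.12 ± 2.07 TPM (log2 -1.28), *Myc* at 11.0 ± 2.63 and 4.20 ± 1.44 TPM (log2 -1.21), and the antiproliferative gene *Btg2* at 213 ± 59.8 and 109 ± 51.4 TPM (log2 -1.04). Each was lower in 4 of 4 mice. The gene that met the criterion as higher was *Gadd45g*, at 91.1 ± 26.9 and 138 ± 38.4 TPM (log2 0.59), named after its value was seen, and it kept that call in 5 of 17 alternatives. By limma's adjusted p, 0 of the list passed without a block and 2 with the mouse as a block (*Myc*, 0.0268, and *Socs3*, 0.0478), beside 0.304% of all genes with the block. At an unadjusted P under 0.05, 14 were lower and 1 higher, beside 1.98% and 16.0% of all genes. Without the siUBA1 muscle of mouse 7, 7 of the list met the criterion as lower in place of 11 (0.928% of all genes). The list was written with earlier results of these muscles known, so its count is a description.

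**Figure D4:**
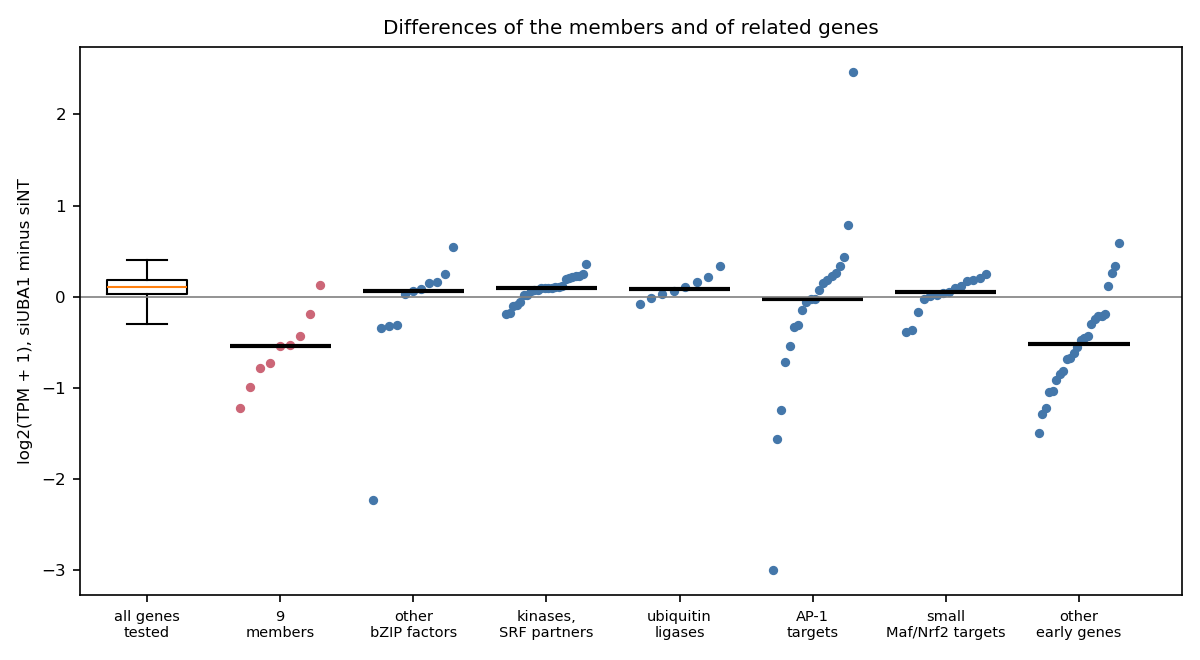
Log2(TPM + 1) differences, siUBA1 minus siNT (y axis), of the 9 tested members (red points) and the tested genes of 6 related lists (blue points), with a line at each median; the box shows the quartiles and median of all 11530 genes tested and its whiskers the central 95%. The median of the other early genes is -0.51 and those of the remaining lists run from -0.02 to 0.10; that of the members (-0.54) includes the 3 chosen for their fall and is -0.48 without them.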

How the data were processed

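RNA was measured in 8 TA muscles (4 siNT, 4 siUBA1). Per the study's methods and the labels, the authors made libraries with a TruSeq v2 kit, which keeps no strand, sequenced them on a NovaSeq, used CLC Genomics Workbench to align the reads to GRCm39, and deposited TPM for 41709 genes. The annotation, the strand setting and the treatment of reads that match several genes are not given in the sources used here. TPM sum to 1000000 per muscle, so one abundant group of transcripts lowers all others.

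The deposited TPM were turned into log2(TPM + 1). The 11530 genes that reached 1 TPM in 4 or more of the 8 muscles were tested with limma 3.58.1 in R 4.3.3 (lmFit, eBayes with trend, two-sided, no block). Benjamini-Hochberg adjustment ran over all genes tested. The study's own test was Kruskal-Wallis on log TPM, and its criterion was an unadjusted P under 0.05 with a log2 difference beyond 0.58. Median-ratio scaling, quantile normalization, TPM without the 37 mitochondrial genes, a pseudocount of 0.1, no filter, a mean of at least 5 TPM, the mouse as a block and leaving out each muscle were alternatives. The pairing comes from the labels, in which a number marks both legs of a mouse, and the correlations of paired deviations were -0.00037 (mouse 1), 0.20, 0.58 and 0.54 (mice 6, 7 and 9). Left and right legs of 1 animal are biological replicates of the siRNA only through the 4 mice.

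Read numbers were recovered by multiplying TPM by transcript length and dividing by a constant for each muscle. That constant was set on single-transcript genes with their annotated exonic length, of which 82.0 to 83.8% of those under 100 reads came out whole within 0.02. For each member the length was fitted, as the smallest that gave whole reads within 0.001 in all 8 muscles. The fitted length was the annotated one for *Fosb*, *Fosl1*, *Jun* and *Jund* and shorter for the other 6 and *Uba1*, whose read numbers rest on that fit. TPM are not counts, and no count model was run. Positions, overlaps and promoter windows come from GENCODE M39 on GRCm39. Columns of values without a sample numbered 0.

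Members and lists were chosen with earlier results of these data known. Genes named are the members, *Uba1*, in each list those past the adjusted p and up to 4 more with the largest difference among those meeting the criterion, and the 5 most correlated with each of *Fosl2*, *Maff* and *Mafk*. The ends of the range are named for 3 lists beside this rule, and *Ccdc85b*, *Prdx2* and *Sirt7* because they overlap a member. Some genes that this rule selects are not reported here.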

Additional observations from a re-analysis of the deposited data

Results flagged for a closer look

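Among 30 groups of 4 muscles searched (each member, *Uba1*, *Ccdc85b* and the 3 family sums in siNT and in siUBA1 muscles), 1 held a muscle far from the others by Dixon's test at the 95% level, where chance gives about 1.50. It was the siNT muscle of mouse 6 for *Jun*, at 200.1 TPM, while the other 3 siNT muscles were at 126 to 133 TPM. Without that muscle the log2 difference of *Jun* was -0.03, and with all muscles -0.19. The same muscle was the highest of the siNT group for 8 of 10 members.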

How the results depend on the processing

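In every alternative run but the stricter filter and quantile normalization, 9 of the 10 members were lower with siUBA1. In those settings *Fosl1* was not evaluated and 8 members were lower. These counts include the 3 members chosen for their fall. Of all genes tested, 18.2% were below 0 on the deposited TPM and 52.0% with median-ratio scaling. No tested member other than the 3 chosen for their fall passed an adjusted p of 0.05 in any of the 16 alternatives (limma adjusted p 0.0645 to 0.351 for *Jund*). With the mouse as a replicate block, 57 genes of all tested passed in place of 3, and 82 with the block and median-ratio scaling, which also gave 159 lower genes by the criterion in place of 96. The number passing was 28 with median-ratio scaling, 28 with quantile normalization, 13 without mitochondrial genes and 11 at a mean of at least 5 TPM. By Kruskal-Wallis it was 0 (lowest adjusted p 0.180). At an unadjusted P under 0.05 that test had 2210 genes, 197 lower and 2013 higher. It has few possible p-values with 4 against 4 muscles, so an adjusted p under 0.05 was hardly within reach. When 1 muscle was left out, the number passing by limma was 2 to 39. It was 6 without siNT replicate 1, 5 without siNT replicate 3, 5 without siUBA1 replicate 2 and 39 without siUBA1 replicate 4 (mouse 9). Higher genes by the criterion were 51, against 151 with a pseudocount of 0.1, 20 at a mean of at least 5 TPM, 29 with median-ratio scaling, 28 with quantile normalization, 87 without mitochondrial genes and 51 to 82 when 1 muscle was left out. The cause was not tested. The log2 difference of *Fosl1* was -3.15 with a pseudocount of 0.1, since low values move with it. The replicate block moved the adjusted p of *Uba1* to 0.0278 and changed no call by adjusted p of the 6 members not chosen for their fall, while *Fosb* met the criterion with it. Across 17 alternatives the adjusted p of *Uba1* was under 0.05 in 8. By limma it ran from 0.00257 without siUBA1 replicate 2 to 0.230 without siNT replicate 2.

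Precision is set by the 4 muscles per group, whose exact p is at least 0.0286, or 0.125 within mice; the test of *Fosl1* within mice was chosen after seeing the data. Counting error matters for *Fosl1*, with 2 to 8 reads per siUBA1 muscle. Leg and siRNA cannot be told apart.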
